A study of Schizosaccharomyces pombe with 30 samples.

Results

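The genes described here encode small nucleolar RNAs (snoRNAs) of the fission yeast *S. pombe*, and the measurement is where the termination factor Seb1 touched their RNA. They are the 58 genes of biotype snoRNA in the RefSeq annotation of assembly ASM294v3 that remain of 66 once the 8 genes of clustered snoRNA transcripts are left out. The annotation holds 12606 nuclear genes. Of the 58 genes, 28 lie on chromosome I, 25 on chromosome II and 5 on chromosome III.

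The study used PAR-CLIP, in which a photoactivatable ribonucleoside crosslinks RNA to a protein that is then pulled down, on 1 library of cells of genotype h-, seb1::seb1-TAP::KanMX, in which Seb1 carries a TAP tag. Cultures at 30 °C held 4% glucose, uracil at 10 mg per litre and 4-thiouracil at 100 μM, to which 900 μM was added 4 h before UV light of 365 nm at 12 J per cm2. 4-thiouridine replaces uridine in new RNA, and a crosslinked one is read as C, so that T-to-C transitions mark a contacted uridine, here called a site. Sites were set against 1 RNA-Seq library of h- cells labelled alike. With 1 library of 1 condition there is no replicate and no second condition, so all values are descriptions, and the 95% Wilson intervals given cover counting error only, since PCR copies of 1 molecule cannot be recognised.

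snoRNAs guide the chemical modification of ribosomal and spliceosomal RNA. Box C/D snoRNAs carry the C box and the D box near their ends and direct 2′-O-methylation, while box H/ACA snoRNAs end a few nucleotides after an ACA and direct pseudouridylation. A few, such as U3, U14 and U17, are needed to cut the ribosomal RNA precursor. Most independently transcribed snoRNA genes of budding yeast are terminated by Nrd1, Nab3 and Sen1, of which Nrd1 is the homologue of Seb1, and their precursors are then trimmed to the mature 3′ end. Sequence after the annotated 3′ end of such a snoRNA is therefore part of the precursor and not of the mature RNA.

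The name under which these genes were grouped, separately encoded, holds for part of them. An intron of a protein-coding gene contains 12 of the 58, in every case the last intron of the host and in 9 cases its only intron. Examples are snoR39a in *rlp7*, snoU24 in *spt20*, snoR58 in *ade4* and snoU24b in *cpc2*. Another 14 overlap a non-coding gene, among them 6 annotated primary transcripts with the 6 snoRNA genes they overlap, snR97, and snR51b, which lies in the clustered transcript SPNCRNA.723. The other 32 overlap no annotated gene on the same strand, and genes on the opposite strand were not considered in this grouping. By their snR number or the product text of the annotation, 24 are box C/D, 21 are box H/ACA, 6 are primary transcripts and 7 were not assigned. The box letters were checked in the annotated sequences. CUGA, the D box, was found in the last 20 nt of 20 of 24 box C/D genes and of 2 of 21 box H/ACA genes, and ACA was found in the last 8 nt of 1 and 15 of them, respectively.

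Many Seb1 sites after the snoRNAs lay in clusters, often near UGUA. UGUA is the Seb1 motif that the paper found at the crosslink sites of this library. At snoU14 and sno52, which have the most sites, many of the clustered sites have no UGUA within 25 nt. The stretches that follow hold clusters of many sites and those of the genes snoR69b and snu32, all chosen after their values were seen, and snR42. Their bounds were set by their sites, and some genes with as many sites, such as snoU24 and snR3, are not printed. Each is read 5′ to 3′ as RNA from ASM294v3, with every site in capitals.
snoU14, 55 to 192 nt after the 3′ end (chrII:1308800-1308937, plus strand): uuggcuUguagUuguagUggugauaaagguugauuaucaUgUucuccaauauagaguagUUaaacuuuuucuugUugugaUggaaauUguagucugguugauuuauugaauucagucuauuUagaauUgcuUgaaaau
sno52, 83 to 143 nt after the 3′ end (chrI:339405-339465, minus strand): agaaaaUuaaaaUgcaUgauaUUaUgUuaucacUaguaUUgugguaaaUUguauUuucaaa
sno12, 73 to 174 nt after the 3′ end (chrIII:583678-583779, plus strand): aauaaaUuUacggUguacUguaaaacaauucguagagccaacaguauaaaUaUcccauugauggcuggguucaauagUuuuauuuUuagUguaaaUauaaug
snR30, 1 to 51 nt after the 3′ end (chrI:3395201-3395251, plus strand): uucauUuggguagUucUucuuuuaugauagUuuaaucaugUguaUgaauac
snR33, 5 to 54 nt after the 3′ end (chrII:2447850-2447899, minus strand): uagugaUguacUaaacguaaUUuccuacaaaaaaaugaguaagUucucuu
snR94, 27 to 74 nt after the 3′ end (chrIII:924113-924160, plus strand): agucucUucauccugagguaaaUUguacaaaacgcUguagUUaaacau
snR42, 51 to 145 nt after the 3′ end (chrII:1917664-1917758, plus strand): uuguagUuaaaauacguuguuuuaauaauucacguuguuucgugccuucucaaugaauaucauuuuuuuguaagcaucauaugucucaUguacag
snoR69b, 6 to 35 nt after the 3′ end (chrI:4155008-4155037, plus strand): uuuguuUaaacaUuguucgUguaUgccugg
snu32, 108 to 199 nt after the 3′ end (chrII:3958633-3958724, minus strand): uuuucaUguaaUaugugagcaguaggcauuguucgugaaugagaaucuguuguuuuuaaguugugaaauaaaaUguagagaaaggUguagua

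The first U of UGUA is a site at least 1 time in all 9 stretches. A U that directly follows UGUAG is a site in snoU14, snR94 and snR42. The second U of UGUA is a site in none of the 9. As the stretches were chosen with their sites known, these counts describe the stretches only. Over all windows after the 3′ end, the first U of UGUA was a site in 30 of 114 cases.

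Of the 58 genes, 49 had at least 1 site between the gene start and 250 nt after the annotated 3′ end (84.5%, 95% interval 73.1 to 91.6). The same was true of 40.0% of the 12548 other annotated genes, of 67.3% of protein-coding genes and of 20.6% of lncRNA genes, so the share of snoRNA genes was above each of these 3 backgrounds. After the 3′ end alone, 38 of 58 genes had a site (65.5%, 52.7 to 76.4), against 14.6% of other genes, 25.8% of protein-coding genes and 6.45% of lncRNA genes. These ends are not alike, since the annotated end of a protein-coding gene is that of its mRNA and not of a trimmed precursor. The classes differ in length, with a median of 142.5 nt for the 58 genes, 1773 nt for protein-coding genes and 623 nt for lncRNA genes, and the part of length in the shares was not tested. Read depth differed too. Sites after the 3′ end had a median of 79 reads at the 58 genes, 23 at protein-coding genes and 13 at lncRNA genes. The part of RNA level and read depth in the shares was not tested. A total of 241 different sites lay at the 58 genes, 1.53% of the 15789 nuclear sites, with 96 inside annotated genes and 145 after their 3′ ends. Overlapping genes share 25 of them, which are counted once in every total over the 58 genes.

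**Figure D1:**
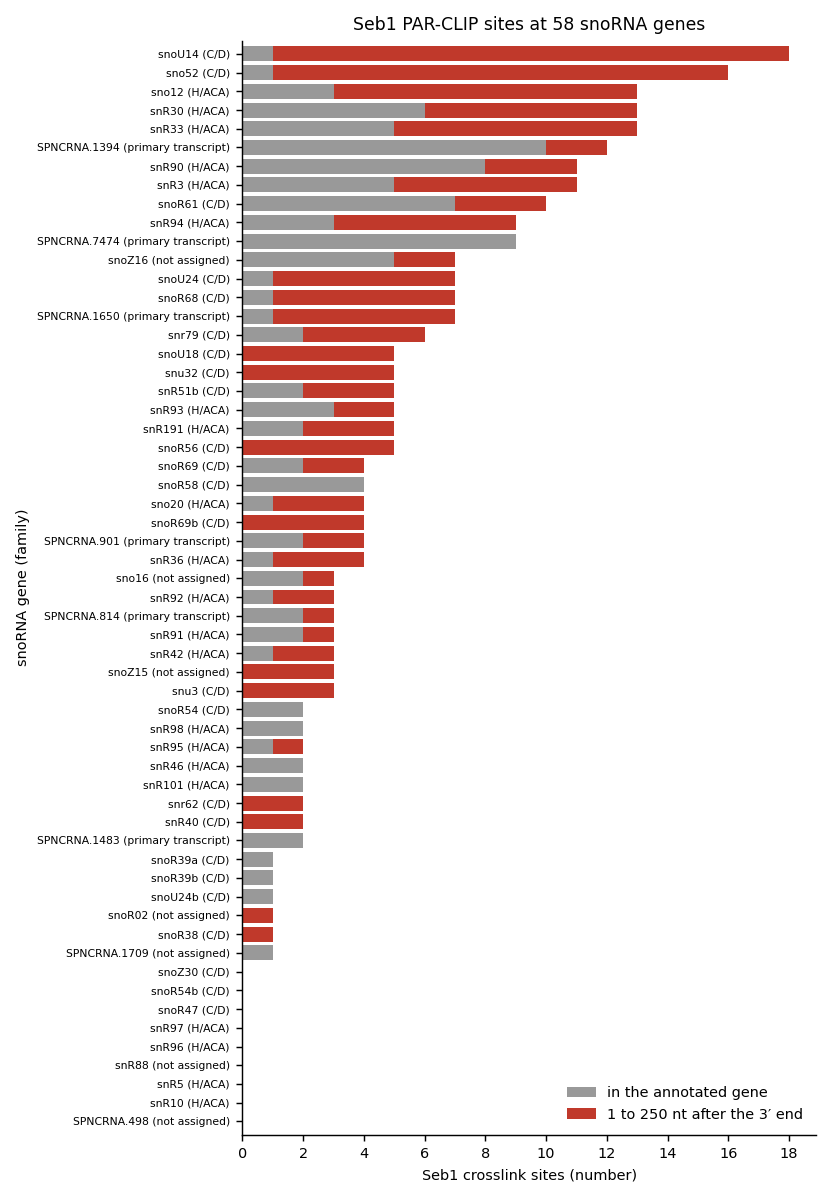
Number of Seb1 sites (x axis) at each of the 58 snoRNA genes (y axis, with family), in the annotated gene in grey and 1 to 250 nt after its 3′ end in red, from 1 library; sites shared by overlapping genes are drawn at both. snoU14 and sno52 have 18 and 16 sites and nearly all of them lie after the 3′ end, while 9 genes have none.

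The number of sites per gene ran from 0 to 18 with a median of 3. In 28 genes sites lay both in the gene and after it, in 11 only in the gene and in 10 only after it. Of the genes with sites, 6 had 1, 34 had 2 to 9 and 9 had 10 or more. The 9 genes without a site were the H/ACA genes snR97, snR96, snR5 and snR10, the C/D genes snoR54b, snoZ30 and snoR47, and the unassigned snR88 and SPNCRNA.498. snR10 is needed for efficient ribosomal RNA processing in budding yeast. The list gives RNA-Seq coverage only at sites, so the RNA level of these 9 genes was not analysed here, and UGUA is present after 7 of them.

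Sites after the 3′ end were most numerous at the box C/D gene snoU14 (SPSNORNA.21). U14 is needed for the maturation of 18S ribosomal RNA in budding yeast. This gene had 1 site in its 112 nt and 17 sites from 61 to 245 nt after them. Of the 4 sites with the most transitions after 3′ ends, 3 stood side by side here. At 61 nt, on the first U of UGUAG, 52 of 1539 reads carried the transition. At 66 nt, between this UGUAG and the next, it was 61 of 1666 reads. At 72 nt, directly after the second UGUAG, it was 96 of 1652 reads. The sites from 94 nt on carried 7 to 18 transitions each, and the next annotated gene on this strand begins 480 nt after snoU14.

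The box C/D gene sno52 (SPSNORNA.29), named for a methylation guide of budding yeast, had 15 sites after its 3′ end. Of these, 13 lie in the printed stretch, with 13 to 40 transitions and 525 to 1194 reads each. The stretch holds 1 UGUA, and its first U was crosslinked in 23 of 1000 reads. The site with most transitions of sno52 after the 3′ end stood alone at 215 nt, with 54 of 1974 reads. Its occupancy, the number of transitions divided by the RNA-Seq coverage of the base in WT cells, was at the maximum of 1, which means that the coverage was no higher than the 54 transitions. snoU14 and sno52 together held 32 of the 145 sites after the 3′ end (22.1%) and 805 of 1426 transitions (56.5%). The other 113 sites had at most 28 transitions and a median of 5.

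Among box H/ACA genes, sno12 (SPSNORNA.32) had 10 sites after its 3′ end, from 79 to 168 nt. They formed 3 groups, at 79 to 91, 123 to 125 and 150 to 168 nt, with 4 to 10 transitions each. The first U of all 3 UGUA of this window was a site. snR30, the homologue of U17, had 7 sites after the 3′ end, of which 6 lay within 45 nt of it. snR33, a pseudouridylation guide in budding yeast, had 8, of which 5 lay within 48 nt. snR94 had 6 within 33 to 68 nt, with 5 to 17 transitions, and the first U of each of its 2 UGUA was a site. The pair of sites of snR42 at 57 and 139 nt carried 5 transitions each, of 28 and 40 reads. Hence the distance of the cluster from the 3′ end differed between genes, close to it in snR30, snR33 and snoR69b and beyond 60 nt in snoU14 and sno12.

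**Figure D2:**
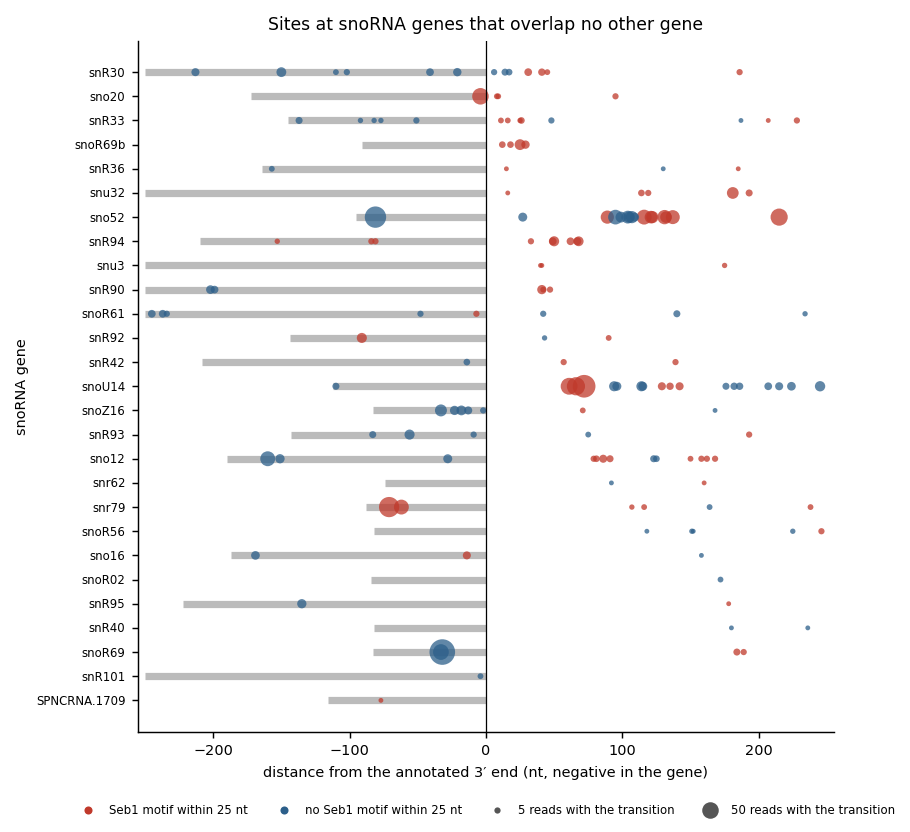
Sites of the 27 snoRNA genes that overlap no other gene on their strand and have a site (y axis) by distance from the annotated 3′ end in nt (x axis), with the gene as a grey bar cut at 250 nt, area growing with the number of reads with the transition, and red where UGUA lies within 25 nt. Of the 27 genes, 25 have sites beyond the 3′ end, at distances that differ between genes, and 71 of these 113 sites are red.

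The first site after the 3′ end lay at a median of 49 nt over the 38 genes, from 6 nt in snR30 to 215 nt in snR91. All 145 sites had a median distance of 108 nt. In successive windows of 50 nt there were 41, 26, 33, 29 and 16 sites. The last 25 nt inside the limit of 250 nt held 8 sites with a median of 4 transitions and at most 18, and the 25 nt just outside it held 6 sites with a median of 2.5 and at most 6.

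Uridines are not equally frequent in the genes and after them, so sites were counted per 1000 uridines. There were 30.1 sites per 1000 uridines after the 3′ end and 25.3 in the genes, a ratio of 1.19 with a counting interval of 0.917 to 1.53. The interval holds 1, so counting error alone covers the difference. Neighbouring sites also share reads and motifs, which makes every interval over sites too narrow. The ratio fell below 1 in 4 alternatives. The ratio was 0.947 with sites within 10 nt counted as 1, 0.833 with a window of 500 nt, 0.769 with sites weighted by transitions and 0.969 without snoU14 and sno52. In the 32 genes that overlap no other gene on their strand the densities were 37.7 after and 27.8 in the gene, and 29.0 and 27.6 without snoU14 and sno52. For protein-coding genes, whose annotated 3′ end is that of the mRNA and not of a trimmed precursor, they were 6.37 and 2.49.

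Along the 32 genes without overlap, the density was 38.7 sites per 1000 uridines from 1 to 100 nt after the 3′ end and 43.2 from 101 to 200 nt. It was 22.9 from 201 to 250 nt and 12.1 from 251 to 500 nt. Genes downstream are included in these windows. Within 250 nt, an lncRNA gene on the same strand begins after snR40 at 20 nt, after snoZ16 at 89 nt and after snR5 at 121 nt, and both sites of snR40, at 180 and 236 nt, and the site of snoZ16 at 168 nt lie past these starts, with 2 transitions each. For protein-coding genes it was 8.36 from 1 to 100 nt and 5.09 from 101 to 200 nt. The order of these windows for the snoRNA genes rested on snoU14 and sno52, without which their density was 34.4 in the nearer and 29.7 in the farther.

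**Figure D3:**
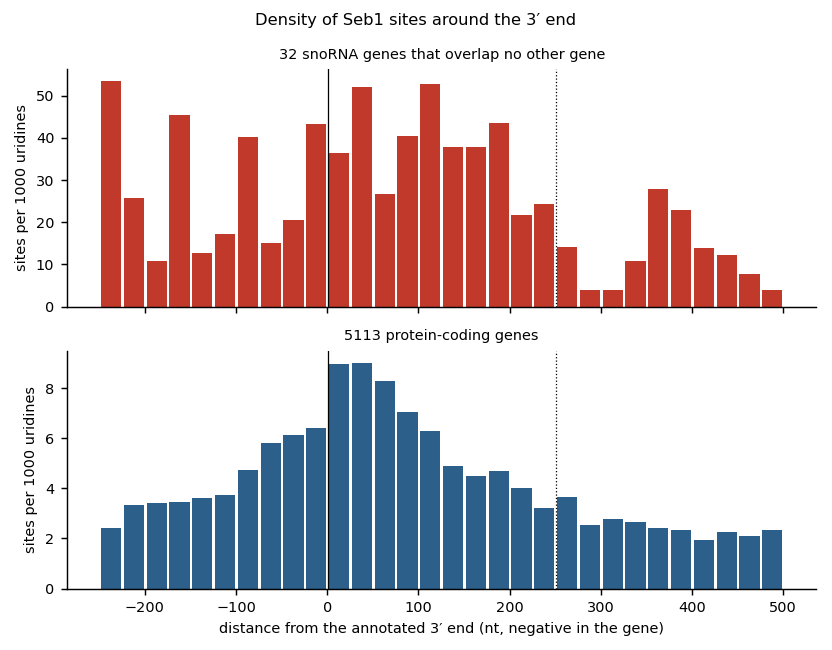
Sites per 1000 uridines (y axes, each from 0) in bins of 25 nt by distance from the annotated 3′ end (x axis, nt; solid line at the end, dotted line at 250 nt), for the 32 snoRNA genes that overlap no other gene on their strand (top) and the 5113 protein-coding genes (bottom). The snoRNA bins lie between 21.7 and 52.8 from 1 to 250 nt after the 3′ end and between 10.8 and 53.6 in the 250 nt before it, and the protein-coding bins are highest, at 9.03, from 26 to 50 nt.

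UGUA lay within 25 nt of 91 of the 145 sites after the 3′ end (62.8%, 54.7 to 70.2). It lay within 25 nt of 32.1% of the other 4678 uridines of the same windows, so the share at sites was 1.95 times as high. Without snoU14 and sno52 the share at sites was 77 of 113 (68.1%), since many sites of these genes had no UGUA within 25 nt. Within 10 nt the shares differed 3.14 times and within 50 nt 1.59 times. GUAG, which continues UGUA in UGUAG, was near 37.9% of sites and 13.9% of other uridines, and GUAA, a core of Nrd1 sites in budding yeast, was near 49.0% and 26.3%. UCUU, a core of budding yeast Nab3 sites, was near 24.8% of sites (18.5 to 32.4) and 33.2% of other uridines. These motifs were searched on the sense strand only, and GUAG and GUAA can overlap UGUA.

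UGUA itself was common in the windows of all classes. It was present in the 250 nt after 81.0% of the 58 genes and after 82.6% of protein-coding genes. Within the 58, the 38 genes with a site after the 3′ end had a median of 3 UGUA there (range 0 to 7), and the 20 without had a median of 1 (range 0 to 3). The ranges overlap, and 6 of the 38 genes with sites had no UGUA in the window, for example snoR56 and snR40.

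Within and beside the motif, sites fell on some uridines more than on others. The first U of UGUA was a site in 30 of 114 cases (26.3%, 19.1 to 35.1), from 20 genes, and in 9 of 19 cases where G followed (47.4%, 27.3 to 68.3). The U directly after UGUAG was a site in 6 of 10 cases (60.0%, 31.3 to 83.2), from 5 genes. These are snoU14, which has 2, and snR30, snR94, snR42 and snoR69. The U directly before UGUA was a site in 6 of 52 cases (11.5%). The second U of UGUA was a site in 0 of 112 cases, which allows a share of up to 2.68%. All other uridines were sites in 2.27% of 4535 cases (1.88 to 2.75). The intervals of the first U and of the U after UGUAG do not overlap that of other uridines. snu32, one of the U3 genes, shows the pattern with little else around it. Its 5 sites after the 3′ end include 4 on the first U of UGUA, and 24 of 127 reads carried the transition at the one 181 nt after the gene.

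**Figure D4:**
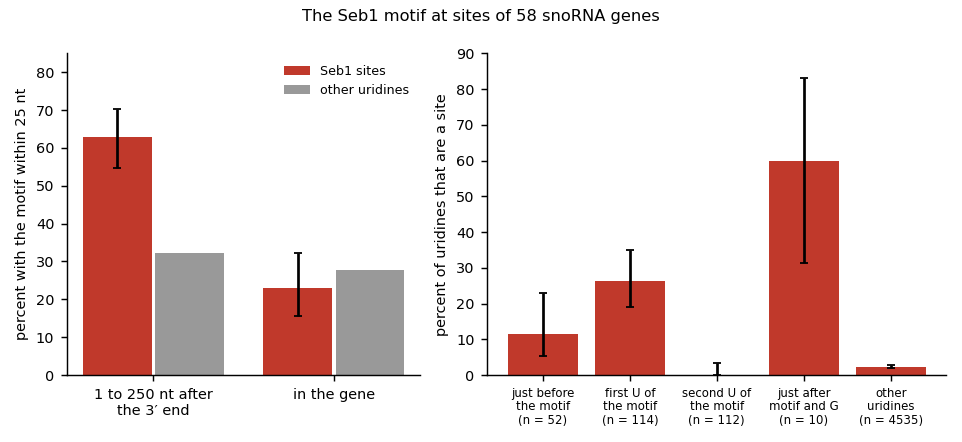
Left, percent of Seb1 sites (red, 95% Wilson interval) and of other uridines (grey) with the motif UGUA within 25 nt, for sites after the 3′ end and in the gene. Right, percent of uridines after the 3′ end that are a site by their place at the motif, with 95% Wilson intervals and the number of uridines. The motif is more frequent at sites after the 3′ end (62.8% against 32.1%) and not in the gene (22.9% against 27.7%), and its second U is a site in 0 of 112 cases.

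Inside the annotated genes UGUA was not more frequent within 25 nt of sites than within 25 nt of other uridines. UGUA lay within 25 nt of 22 of the 96 sites in genes (22.9%, 15.6 to 32.3) and of 27.7% of the other uridines there. This interval does not overlap that of the sites after the 3′ end. The 6 primary transcripts and the other annotated units longer than 330 nt, snoR61 with 653 nt and snR90 with 488 nt, were then left out. In the remaining 50 genes, UGUA was near 16 of 67 sites (23.9%, 15.3 to 35.3) and near 27.1% of other uridines. The first U of UGUA was a site in 5 of 61 cases in the genes (8.20%, 3.55 to 17.8), and the second U in 0 of 63, which allows up to 4.76%.

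Sites in the genes carried a median of 9 transitions in 155 reads, and those after the 3′ end a median of 5 in 79. Pooled over sites, the reads with the transition made up 4.80% of all reads at sites in genes and 4.95% after them. The latter rested on snoU14 and sno52, without which the shares were 5.14% (4.88 to 5.41) in genes and 8.74% (8.10 to 9.41) after them. Per site the median share was 5.45% in genes and 7.55% after them. A site with few reads is listed only if its share is high, since every listed site has at least 2 transitions. Sites after the 3′ end had fewer reads, and the part of read depth in these differences was not tested. Reads shared by neighbouring sites also make the intervals over reads too narrow. The median occupancy was 0.0360 and 0.0369, at a median RNA-Seq coverage of 304.5 in the genes and 114 after them. More reads lay at sites in the genes, where RNA-Seq coverage was also higher, and the medians of occupancy over all sites were close. They were not alike in each family, with a site counted in each family whose genes or windows hold it. In the gene and after it they were 0.142 and 0.0820 for box C/D and 0.0171 and 0.0175 for box H/ACA. For primary transcripts they were 0.0242 and 0.0405, and for unassigned genes 0.0243 and 0.0357. The part of RNA level in the read counts was not tested. Occupancy was at its maximum at 5 of the sites in genes and at 3 of those after them. The coverage of the whole list is lower, with a median of 13 reads and 2 transitions per site. Only 24 of the 241 sites rested on 2 transitions, the smallest number present.

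A group of sites in box C/D genes fell on the C box, UGAUGA in its common form. The lines that follow show it from the 5′ end of the annotated gene, except for snoR61, in which UGAUGA lies further from the annotated 5′ end.
snoR39a, 1 to 25 nt (chrI:1712996-1713020, plus strand): gaaaaagaUgaaccuuucacucuug
snoR39b, 1 to 25 nt (chrII:1791796-1791820, minus strand): caagaugaUgacaacaaauuucgga
snoR54, 1 to 25 nt (chrII:1707601-1707625, plus strand): ccuuaugaUgcucuuugauuaacuu
snoR58, 1 to 25 nt (chrI:5366273-5366297, minus strand): gccuaugaUgauuaccguuuauUua
snoU24, 1 to 25 nt (chrI:5369662-5369686, minus strand): ugcaauugaUgaaauauuugcuuau
sno52, 1 to 25 nt (chrI:339618-339642, minus strand): auuuugaaaaugaUgaaaauaacgc
snoR61, 146 to 180 nt (chrII:3874727-3874761, minus strand): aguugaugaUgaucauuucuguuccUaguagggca

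In each of these lines a capital U stands in GAUG. GAUG was searched in the first 30 nt of all 24 box C/D genes, after this pattern had been seen. It was found 24 times in 20 genes, and its U was a site in 7 cases (29.2%, 14.9 to 49.2). Of the other 230 uridines of the same 30 nt, 3 were sites (1.30%, 0.445 to 3.76). As GAUG and this stretch were chosen with the sites known, the difference describes these sites only. The U in front of GAUG, the first U of UGAUG, was a site in 0 of 20 cases, which allows up to 15.0%. The site lay 9, 10 or 14 nt from the 5′ end in the 6 genes printed first and 26 nt from it in snr79, whose GAUG at 11 nt had none. Transitions numbered 32 of 469 reads in snoR39a, 26 of 819 in snoR39b, 27 of 708 in snoR54, 14 of 487 in snoR58, 13 of 452 in snoU24 and 85 of 3582 in sno52. The site of snoR61 at 155 nt was read with 45 transitions in 887 reads. Of the 7 sites, 5 belong to genes in introns, where 9 of the 24 box C/D genes lie. The 6 printed first had 452 to 3582 reads, more than the median of sites in genes. Whether Seb1 touches the mature RNA or a precursor cannot be told apart.

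Only snoR69 and snoR58 had a site inside the gene with more transitions than the 85 of sno52 at the C box. The stretches around these and other sites with many transitions outside the C box are printed with the 5′ leader of the snR46 precursor, counted from the 5′ end of the annotated gene. That of snr79 also holds its site in GAUG, at 26 nt, with 40 of 1647 reads.
snoR69, 41 to 60 nt (chrI:5387599-5387618, plus strand): guauuuacaUUgacgaguac
snoR58, 44 to 68 nt (chrI:5366230-5366254, minus strand): uucaucuuaUguagcUacaagguuu
snr79, 8 to 35 nt (chrI:2705957-2705984, plus strand): ugaugacacUguauuugaUgcuggagaa
sno20, 159 to 172 nt (chrII:2411348-2411361, plus strand): uaguucagaUagcu
SPNCRNA.7474, 110 to 138 nt (chrIII:1718137-1718165, minus strand): ucuuaaacuUgaaUUguagUaacgguugc

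snoR69, a box C/D gene, had the site with the most transitions of all 241, 123 of 1176 reads at 51 nt, next to one with 45 of 1183 at 50 nt. There is no UGUA within 25 nt of it. In snoR58, which lies in an intron of *ade4*, the first U of UGUAG at 53 nt was crosslinked in 103 of 464 reads. In snr79 the first U of UGUA at 17 nt was crosslinked in 76 of 1407 reads. In the H/ACA gene sno20 the site lay 4 nt before the annotated 3′ end, with 50 of 677 reads. sno12 had 40 of 290 reads at 30 nt, with an occupancy of 1. Together with sno52, snoU14 and snoR61, the genes snoR69 (180 transitions), snoR58 (147) and snr79 (131) were those with the most transitions over gene and window.

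The genes with most sites inside the annotation were SPNCRNA.1394 (10), SPNCRNA.7474 (9), snR90 (8), snoR61 (7) and snR30 (6). SPNCRNA.1394 is the precursor of snR3, with 5 of its sites inside snR3 and 5 past the end of it, which lies 230 nt into the precursor. SPNCRNA.7474 is the precursor of snR46. Of its 9 sites, 7 lay before the mature snR46, which starts 188 nt into it, and none after the annotated 3′ end. The last 4 of these 7 lie in the printed stretch, where the first U of UGUAG carried 24 transitions in 155 reads and the U after UGUAG 12 in 150. In this precursor the motif was thus crosslinked upstream of the snoRNA. The sites of snR90 and snR30 inside the genes carried 4 to 16 transitions each.

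The 12 genes in introns were separate from the rest by position. Of the 12, 10 had a site, but 5 had one after the 3′ end (41.7%, 19.3 to 68.0), against 25 of 32 genes without overlap (78.1%, 61.2 to 89.0), and the intervals overlap. Their density was 16.3 sites per 1000 uridines after the snoRNA and 33.4 in it. Of their 18 sites after the snoRNA, 14 belonged to 3 of the 4 genes whose host ends within 250 nt, snoU24, snoU18 and snoZ15, and 5 lay beyond the end of the host. At these genes a site after the snoRNA and a site at the 3′ end of the host mRNA cannot be told apart. The 8 genes deeper in their hosts had 4 such sites, at snR191 and snoR38. snoR39a, snoR39b, snoR54, snoR58 and snoU24b had sites in the snoRNA and none after it.

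A site after the 3′ end was present in 16 of 24 box C/D genes and in 14 of 21 box H/ACA genes, which is 66.7% of each family. Without overlap to another gene on the same strand these were 11 of 12 (91.7%, 64.6 to 98.5) and 11 of 15 (73.3%, 48.0 to 89.1). The density in these genes was 53.0 sites per 1000 uridines for box C/D and 34.3 for box H/ACA. Of the 62 sites behind the first value, 32 belonged to snoU14 and sno52, and without these genes it was 31.1. For the motif, a site was counted in each family with a window that holds it, also where it lies inside a precursor. Sites past snR3 but inside its precursor SPNCRNA.1394, for example, count here as after snR3, so the families do not add up to the total. UGUA lay within 25 nt of 41 of 57 sites of H/ACA genes (71.9%, 59.2 to 81.9) and of 45 of 83 of C/D genes (54.2%, 43.6 to 64.5). Without snoU14 and sno52 the latter was 31 of 51 (60.8%, 47.1 to 73.0). In the gene, 81.0% of H/ACA and 54.2% of C/D genes had a site, and H/ACA genes are the longer ones, with a median of 168 nt against 83.5.

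Compared with the most similar classes, the 8 genes of clustered snoRNA transcripts had 17.7 sites per 1000 uridines after the 3′ end and 51.0 in the gene, from 7 and 26 sites. The 6 snRNA genes had 29.9 and 62.7, from 18 and 17 sites. In both, the density was higher in the gene than after it. All genes of both classes had a site, and 7 of the 8 clustered snoRNA genes (87.5%, 52.9 to 97.8) and 5 of the 6 snRNA genes (83.3%, 43.6 to 97.0) had one after the 3′ end. These shares are higher than those of the 58 genes, but their intervals overlap. UGUA was near 83.3% of the sites after snRNA genes (60.8 to 94.2), 63.9% of those after protein-coding genes (62.0 to 65.8), 48.2% of those after lncRNA genes (44.1 to 52.3) and 3 of the 7 after clustered snoRNA genes (42.9%). The interval of the 58 genes, 54.7 to 70.2, lies above that of lncRNA genes and overlaps the others.

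On the opposite strand, 30 sites lay in the windows of the 58 genes. In the 18 windows with no annotated gene on that strand there were 5 antisense sites, at 6 genes whose windows overlap in part, beside 85 sense sites.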

How the data were processed

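The authors sequenced 1 Seb1 PAR-CLIP library, called crosslink sites and deposited for each site the count of reads with the T-to-C transition, the count of reads covering it, a p-value and an occupancy, which is a fraction from 0 to 1. The counts were not normalized by the authors, and the site calling was not repeated. At all 15824 sites the transitions divided by the deposited fraction give a whole number within 1e-06 of its size, taken as RNA-Seq coverage. The deposited p-value was used only to describe the list, where it is at most 0.00499. The submitters' processing notes name the build ASM294v2 and Bowtie 1.1.1. Sites were matched to the RefSeq annotation and sequence of ASM294v3, in which all 15789 nuclear sites fall on a T of their strand.

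A site belonged to a gene if it lay on its strand from the gene start to 250 nt after the annotated 3′ end. Motifs were searched on this strand within 25 nt of a site. Other uridines are all uridines of the same windows without a site. Depth was a median of 95 reads and 6 transitions per site over the 241 sites. Shares have 95% Wilson intervals, and a count of 0 was given the limit of 3 counts. No test was run on 1 library. The 10 genes with the most sites, the 5 with the most sites in the gene, the 5 with the most after it, the 5 with the most transitions, those without a site and the genes named in the paper are named, and others were chosen after their values were seen. Members and lists were chosen with earlier results of these data known. Box families followed fixed snR numbers and, added later, the product text. Alternatives covered the site filter, the window, the motif distance and the set of genes. The other 29 samples were not used here. Counting was tested on simulated sites, with pandas 2.3.3, numpy 2.4.6, matplotlib 3.10.9 and scipy 1.17.1 in Python 3.11.15.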

Additional observations from a re-analysis of the deposited data

How the results depend on the processing

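The share of genes with a site ranged from 77.6% to 89.7% over 11 other settings. Near the 3′ end, the values depended on the window. With 150 nt, 51.0% of sites lay after the 3′ end at a median distance of 70.5 nt. With 500 nt, 81.0% of genes had a site after the 3′ end, 66.4% of sites lay there, their median distance was 138 nt and the density ratio of after to in the gene was 0.833. The 17 genes more than 250 nt from other genes gave 82.4% of genes with a site after the 3′ end, 70.0% of sites after it, a density ratio of 1.63 and a UGUA ratio of 1.69. With sites within 10 nt counted as 1, the median distance was 125.5 nt and the density ratio 0.947, and weighted by transitions the density ratio was 0.769. It was 0.969 without snoU14 and sno52, an alternative added after seeing the data. UGUA lay within 10 nt of 48.3% of sites (ratio 3.14) and within 50 nt of 84.8% (ratio 1.59). The UGUA ratio stayed above 1 in all 13 other settings, all on sites of the library in which the motif was found. Leaving out the genes in introns and merging overlapping genes, also added after seeing the data, moved no value beyond its interval. No paired analysis was possible because 1 sample was used. Depth limits the statements on single genes, as 34 of the 49 genes with sites had 2 to 9 of them.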
